A study of Mus musculus with 19 samples.

Results

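The genes described here are p53 (Trp53), its inhibitors Mdm2 and Mdm4, and the p53 target genes Ccng1, Cdkn1a, Gadd45a, Sesn1, Sesn2, Trp53inp1 and Zmat3. They were chosen by name, as 10 of the 27793 gene names on the array, and all 21 of their probes are reported. The rule uses names only, and earlier results of these data were known when the names were listed. Each sample was hybridised to its own 1-colour Agilent array covering the mouse transcriptome.

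C2C12 is an established mouse myoblast line. The cells labelled WT (n = 6) carried empty plasmids, and the cells labelled HDAC4&5 (n = 6) carried plasmids for human wild-type HDAC4 and HDAC5, class IIa histone deacetylases. Both lines were made by transfection and repeated selection with hygromycin and geneticin at 500 µg/ml each, so both carry the resistance genes, and both were harvested 48 h after seeding at about 80% confluency. The labels do not say whether the 6 samples of a line came from separate cultures, so the p-values measure the spread between these samples, which may be technical. The study's methods describe fewer biological replicates per group than there are C2C12 arrays, and do not say which arrays would share one, so the C2C12 p-values may be too small. Soleus muscle came from male db/db mice on C57BL6J (labelled db, n = 4), which lack a working leptin receptor, and from heterozygous littermates (labelled Con, genotype db -/+, n = 3), all aged 12 weeks and fasted for 5 h. The comparison in cells asks how the p53 pathway stands in myoblasts that overexpress HDAC4 and 5, and the comparison in muscle asks the same of a model of obesity and lipid overload.

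p53 is a transcription factor that is held at a low level in unstressed cells because Mdm2, a ubiquitin ligase, marks it for degradation, while Mdm4 binds its activation domain. After DNA damage or other stress it is modified by phosphorylation and acetylation, escapes both inhibitors and turns on genes for cell cycle arrest, repair, antioxidant defence and cell death, as well as Mdm2 itself. In the muscle lineage one of its targets, Cdkn1a (p21, an inhibitor of cyclin-dependent kinases), also rises when myoblasts leave the cell cycle to differentiate. mRNA levels do not measure the amount or the modification of p53 protein.

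The level of a probe is its processed intensity on the log2 scale, set relative to the 75th percentile of its array, so 0 is the 75th percentile of an array, and a level can be compared between arrays for 1 probe but not between probes. The 75th percentile itself was at an intensity of 564 to 1691 on WT arrays, 494 to 873 on HDAC4&5 arrays, 153 to 555 on Con arrays and 180 to 686 on db arrays. The C2C12 arrays lay on 3 slides and the soleus arrays on 2, each slide holding both groups. On HDAC4&5 arrays Myod1, Ckm, Tnni1 and Ttn, which define myoblasts and muscle fibres, did not rise well above background in any sample, and the summed level of the 8 muscle fibre markers with a value on every C2C12 array was 0.715 to 0.853 times the 75th percentile against 28.7 to 35 times on WT arrays, although Myh7 in that list was higher (mean -2.16 against -3.6 on the log2 scale). The sum of 4 fibroblast markers was 38.2 to 45.8 times the 75th percentile on WT and 81 to 97.2 times on HDAC4&5 arrays, and that of 4 Schwann cell markers 0.104 to 0.163 and 0.345 to 0.483 times, without overlap in either. Pax7, Myf5 and the 4 endothelial markers stayed near background in both lines. The mouse probe for Hdac4 differed by -0.05 between the lines (SE 0.05, limma adjusted p = 0.369) and that for Hdac5 by 1.42 (SE 0.27, limma adjusted p = 0.000381). Neither probe is designed to the human plasmid sequences, so they do not check the labels.

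In C2C12 cells, 5 of the 10 genes were higher in HDAC4&5 than in WT cells (Sesn2, Trp53inp1, Gadd45a, Mdm2 and Mdm4), 2 were lower (Cdkn1a and Sesn1) and 3 did not pass the test (Trp53, Ccng1 and Zmat3), each by the probe with the highest mean over all 19 arrays. Over the C2C12 arrays alone other probes of Trp53, Mdm4 and Ccng1 read higher, and by those, a choice made after seeing the data, 9 of the 10 genes were called, 7 higher and 2 lower, with Trp53 and Ccng1 among the higher (all genes, 69.4% called). By the probes brightest over the 19 arrays, the largest rise was that of Sesn2, 3.73-fold, and the largest fall that of Cdkn1a, 2.85-fold. The same test called 69.4% of the 13968 genes tested, 36.5% higher and 32.9% lower, so 7 called of 10 is no more than the share among all genes. The groups did not overlap for 6 of the 10 genes, against 54.2% of all genes. The median difference was 0.28 on the log2 scale over the members and 0.05 over all genes. By probe, 12 of the 19 member probes tested were higher and 4 lower, where 68.7% of all probes were called, 36.6% higher and 32.1% lower.

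**Figure D1:**
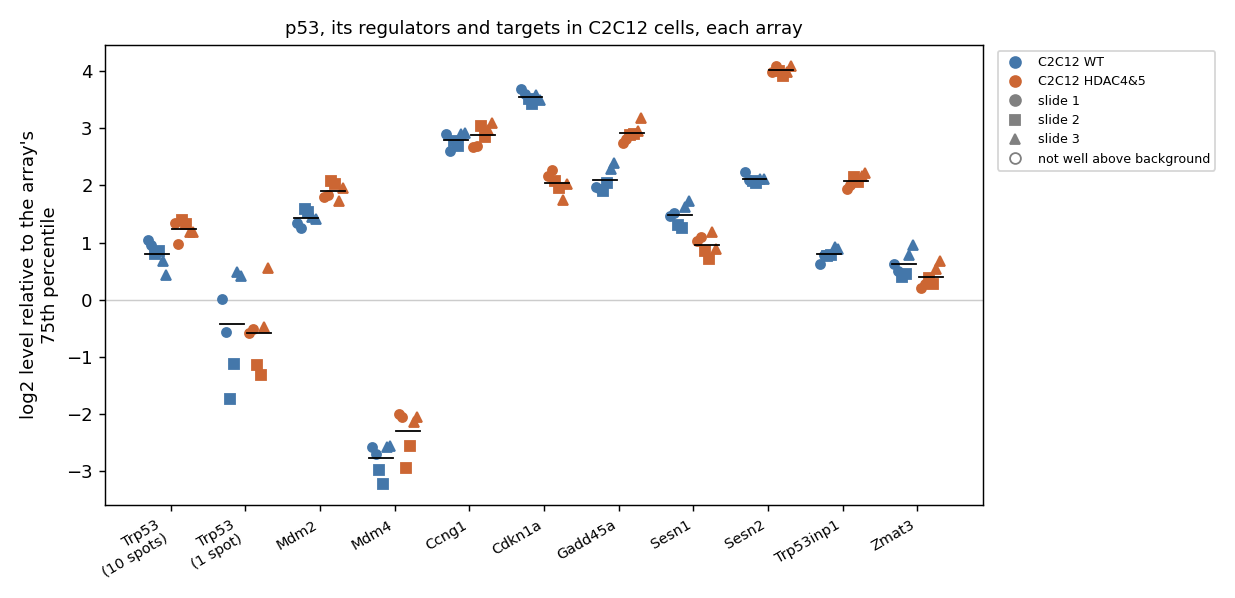
Level of each member in the 6 WT and 6 HDAC4&5 arrays, as log2 relative to the array's 75th percentile (vertical axis), by gene (horizontal axis), at the probe brightest over the 19 arrays and at both Trp53 probes. Each point is 1 array, its shape gives the slide, and bars are group means. Levels are to be compared within a gene; Cdkn1a sits at 1.75 to 2.27 in HDAC4&5 cells, below all WT arrays, and Sesn2 at 3.92 to 4.1, above all WT arrays.

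Trp53 was measured by 2 probes that gave different answers. They are shown because the call for the gene rests on which is read; the probe printed 10 times on each array (mm9, chr11:69403134-69403193, plus strand) is given whole, and the probe printed once (chr11:69393959-69394017, plus strand) by its first 30 bases.
Trp53, 10 spots: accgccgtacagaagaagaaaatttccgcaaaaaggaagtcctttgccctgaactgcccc
Trp53, 1 spot: gcattcaggccctcatcctcctccttccca
At the probe with 10 spots the level was 0.43 to 1.05 on WT arrays (median 0.83) and 0.97 to 1.4 on HDAC4&5 arrays (median 1.26). Of the 6 HDAC4&5 arrays, 5 were above every WT array and the ranges overlapped. The difference of 0.44 (SE 0.11, 1.36-fold) passed the test (limma adjusted p = 0.00229), with 0.15, 0.53 and 0.64 within the 3 slides. At the probe with 1 spot, which has the higher mean over the 19 arrays where it has a value but not over the C2C12 arrays, the level was -1.74 to 0.49 on WT arrays and -1.32 to 0.56 on HDAC4&5 arrays. The difference there was -0.16, with a 95% interval of -1.05 to 0.73 (limma adjusted p = 0.749). The spread of that probe between WT arrays was 0.89 (SD, n = 6) against 0.22 at the other probe.

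Mdm2, the ubiquitin ligase that is both an inhibitor and a target of p53, was higher in HDAC4&5 cells at both of its probes. At the brighter probe (chr10:117126278-117126337, minus strand) the level was 1.26 to 1.58 on WT arrays (median 1.43) and 1.73 to 2.07 on HDAC4&5 arrays (median 1.9). At the probe with 10 spots it was -0.96 to -0.8 on WT arrays and -0.62 to -0.09 on HDAC4&5 arrays. At neither probe did the groups overlap, as at 52.3% of all probes. The rises of 0.48 (SE 0.08, limma adjusted p = 8.33e-05) and 0.59 (SE 0.09, limma adjusted p = 4.31e-05) differed by 0.11 within arrays (exact permutation p = 0.476).

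Mdm4, which lacks ligase activity of its own and masks the activation domain of p53, was higher at 3 of its 4 probes, by amounts that differed widely. The 3 tested probes lie at chr1:134897893-134897952, chr1:134888407-134888466 and chr1:134885207-134885266 (mm9, minus strand), and their first 30 bases are shown in that order because the size of the rise depends on the probe. The first 2 are designed to the RefSeq mRNA and the last to a separate cDNA, AK043359.
Mdm4, brightest over 19 arrays: gacgttgctggcctgccttggtggtttcta
Mdm4, downstream: acagatattttttctgagcagaaagctgaa
Mdm4, AK043359: agtagatttatgattgagggctggaacggg
At the probe brightest over the 19 arrays, though not over the C2C12 arrays, the level was -3.23 to -2.56 on WT arrays (median -2.65) and -2.95 to -2.01 on HDAC4&5 arrays (median -2.11), and the groups overlapped. The rise there was 0.48 (SE 0.18, limma adjusted p = 0.0284). That call was lost without slide 1 (0.41, limma adjusted p = 0.163) or without slide 3 (0.48, limma adjusted p = 0.101). At the AK043359 probe the level was -3.6 to -3.35 on WT arrays and -1.52 to -1.3 on HDAC4&5 arrays, with a wide gap between the groups. That rise was 2.05 (SE 0.06, 4.15-fold, limma adjusted p = 5.39e-12), and the remaining tested probe rose by 1.00 (SE 0.11, limma adjusted p = 2e-06). Within arrays the AK043359 probe rose by 1.57 more than the probe brightest over the 19 arrays (exact permutation p = 0.00216). No split of 6 against 6 arrays can go below that p. The fourth probe was well above background on 2 WT and 5 HDAC4&5 arrays and was not tested.

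Cdkn1a, whose product p21 halts the cell cycle at the G1 phase, was the member that fell most. Its single probe has 10 spots and lies at chr17:29237377-29237436 (mm9, plus strand), and is the only measure of the gene on the array.
Cdkn1a probe, first 30 bases: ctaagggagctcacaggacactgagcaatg
On WT arrays the level was 3.42 to 3.69 (median 3.55), and on HDAC4&5 arrays it was 1.75 to 2.27 (median 2.06). All 6 HDAC4&5 arrays were below every WT array. The mean fell by 1.51 on the log2 scale (SE 0.08, 2.85-fold, limma adjusted p = 2.49e-09), and the difference was -1.43, -1.45 and -1.65 within the 3 slides. Of the 13968 genes tested, 85.3% had a smaller absolute difference and 1144 fell further. The spots agreed closely, with an SD between spots of at most 0.08 on any C2C12 array. Beside this, the summed level of the 5 myoblast markers with a value on every C2C12 array was 65.5 to 101 times the 75th percentile on WT arrays and 0.182 to 0.302 times on HDAC4&5 arrays, and its part in the Cdkn1a result was not tested. In bulk samples such as these, fewer cells that express a gene and less RNA per cell cannot be told apart.

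RefSeq start sites (GRCm38.p6) were found in the promoter table used here for 8 of the 10 genes, with 11 windows of 250 bases before to 50 after a start. Trp53inp1 and Zmat3 were not matched in that table. The bases before the start are shown for Cdkn1a, which has 2 start sites and fell, for Sesn2, which rose most, and for Mdm2, with matches of the GC box (GGGCGG) and of the p53 half-site in capitals, on either strand. They run in the direction of transcription and lie at chr17:29090729-29090978 and chr17:29093519-29093768 (plus strand), chr4:132510457-132510706 (minus strand) and chr10:117710759-117711008 (minus strand).
Cdkn1a, upstream start: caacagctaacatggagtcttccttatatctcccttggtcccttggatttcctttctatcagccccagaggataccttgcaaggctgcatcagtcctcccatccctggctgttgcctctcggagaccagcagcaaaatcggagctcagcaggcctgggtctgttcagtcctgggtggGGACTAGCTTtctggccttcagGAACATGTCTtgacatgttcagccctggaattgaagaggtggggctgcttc
Cdkn1a, downstream start: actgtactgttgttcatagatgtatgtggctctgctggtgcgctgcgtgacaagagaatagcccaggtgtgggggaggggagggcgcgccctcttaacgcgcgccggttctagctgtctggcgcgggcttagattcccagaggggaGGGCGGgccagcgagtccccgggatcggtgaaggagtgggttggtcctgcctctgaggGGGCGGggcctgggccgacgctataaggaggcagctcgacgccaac
Sesn2: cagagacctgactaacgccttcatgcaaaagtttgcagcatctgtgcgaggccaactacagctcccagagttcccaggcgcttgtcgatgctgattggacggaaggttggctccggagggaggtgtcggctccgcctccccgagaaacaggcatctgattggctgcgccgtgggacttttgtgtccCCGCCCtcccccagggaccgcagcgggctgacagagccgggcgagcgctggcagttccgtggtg
Mdm2: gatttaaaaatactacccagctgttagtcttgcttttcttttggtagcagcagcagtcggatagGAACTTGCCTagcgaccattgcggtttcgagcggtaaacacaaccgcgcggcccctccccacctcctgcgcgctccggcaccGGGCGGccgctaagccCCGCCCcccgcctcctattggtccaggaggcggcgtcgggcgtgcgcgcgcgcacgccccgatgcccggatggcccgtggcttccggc
A p53 half-site match was present in 6 of the 11 windows (Trp53, Mdm2, Ccng1, Cdkn1a at the upstream start, Gadd45a and 1 of the 2 windows of Sesn1) and in 8.4% of the 32851 promoter windows of the table. Genes that rose, fell and did not pass the test were all among them, and the Sesn2 window held none. The GC box was present in 6 of the 11 windows and in 35.7% of all windows, and the E-box (CANNTG), the core bound by MyoD and related factors, in 7 and in 72.3%. No window held the amino acid response element (TGATGNAA, in 4.0% of all windows) or the MEF2 site (in 3.2%), the site of a factor that class IIa histone deacetylases bind. CCAAT was present in 7 of 11 windows against 37.4%, and TATAAA in 1, that of Trp53, against 13.6%. A match describes letters only, and only these windows were searched.

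The sestrins, which lower reactive oxygen species and restrain the growth kinase mTORC1, moved in opposite directions. Sesn2 was at 2.04 to 2.24 on WT arrays (median 2.1) and at 3.92 to 4.1 on HDAC4&5 arrays (median 4) at its brighter probe (chr4:132047974-132048033, minus strand). The rise was 1.9 (SE 0.05, 3.73-fold, limma adjusted p = 1.66e-12), with 1.86, 1.91 and 1.93 within slides, and 691 of the 13968 genes rose further. At its other probe (chr4:132048858-132048917) the level was -0.02 to 0.94 on WT arrays and 0.99 to 1.77 on HDAC4&5 arrays. That rise of 0.98 (SE 0.18, limma adjusted p = 0.000283) was smaller by 0.92 within arrays (exact permutation p = 0.00216), so both probes gave the direction and differed in the size.
Sesn2, brighter probe: gtggggaagggcatccagtgttaaagtgca
Sesn2, other probe: agcccgtggtggtctccctgctgtctgaag
Sesn1 was at 1.26 to 1.72 on WT arrays (median 1.49) and at 0.71 to 1.18 on HDAC4&5 arrays (median 0.96), with no overlap. It fell by 0.52 (SE 0.1, 1.43-fold, limma adjusted p = 0.000391). Its other probes fell by 0.52 and 0.63, and the last of them, whose 60 bases span 4163 bases of the genome and so cross a gap in the alignment, was well above background on 3 of the 6 HDAC4&5 arrays. The brightest 2 probes of Sesn1 differed by 0.00 in their change. Within arrays, Sesn2 rose by 2.42 relative to Sesn1.

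Trp53inp1, a stress-induced gene whose product acts with p53 and in autophagy, was at 0.62 to 0.93 on WT arrays and at 1.93 to 2.21 on HDAC4&5 arrays. It rose by 1.29 (SE 0.07, 2.45-fold, limma adjusted p = 1.13e-09), and by 0.93 at its other probe, with no overlap at either. Gadd45a, which acts in DNA repair and stress kinase signalling, was at 1.9 to 2.4 on WT arrays and at 2.74 to 3.18 on HDAC4&5 arrays, and rose by 0.82 (SE 0.1, 1.77-fold, limma adjusted p = 6.94e-06). Both genes lay above every WT array on all 6 HDAC4&5 arrays.

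Ccng1, a cyclin that recruits a phosphatase to Mdm2, gave a call at only 1 of its 2 probes. At the probe that is the brighter through the soleus arrays (chr11:40562427-40562486, minus strand) the level was 2.6 to 2.92 on WT arrays and 2.67 to 3.09 on HDAC4&5 arrays, and the difference was 0.09 with a 95% interval of -0.11 to 0.28 (limma adjusted p = 0.405). At the other (chr11:40564413-40564472) it was 2.64 to 2.95 and 3.28 to 3.61, with no overlap and a rise of 0.67 (SE 0.07, limma adjusted p = 1.59e-06). The change at the 2 probes differed by 0.58 within arrays (exact permutation p = 0.00216).
Ccng1, probe brighter in soleus: agaaataaaattgctgagtttatctgcaaa
Ccng1, other probe: tcagaagttgaaatggattgtgtctggacg
Zmat3, an RNA-binding protein that regulates splicing and mRNA stability, was at 0.39 to 0.96 on WT arrays and at 0.2 to 0.68 on HDAC4&5 arrays. The difference of -0.23 (SE 0.11, limma adjusted p = 0.0816) did not pass the test, but passed when the slide was a block (limma adjusted p = 0.00297, where 77.3% of all genes passed) and when the pairing by replicate number was (limma adjusted p = 0.00634, where 76.6% passed), and was -0.32, -0.1 and -0.27 within slides. Its second probe was near background in all 19 samples.

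**Figure D2:**
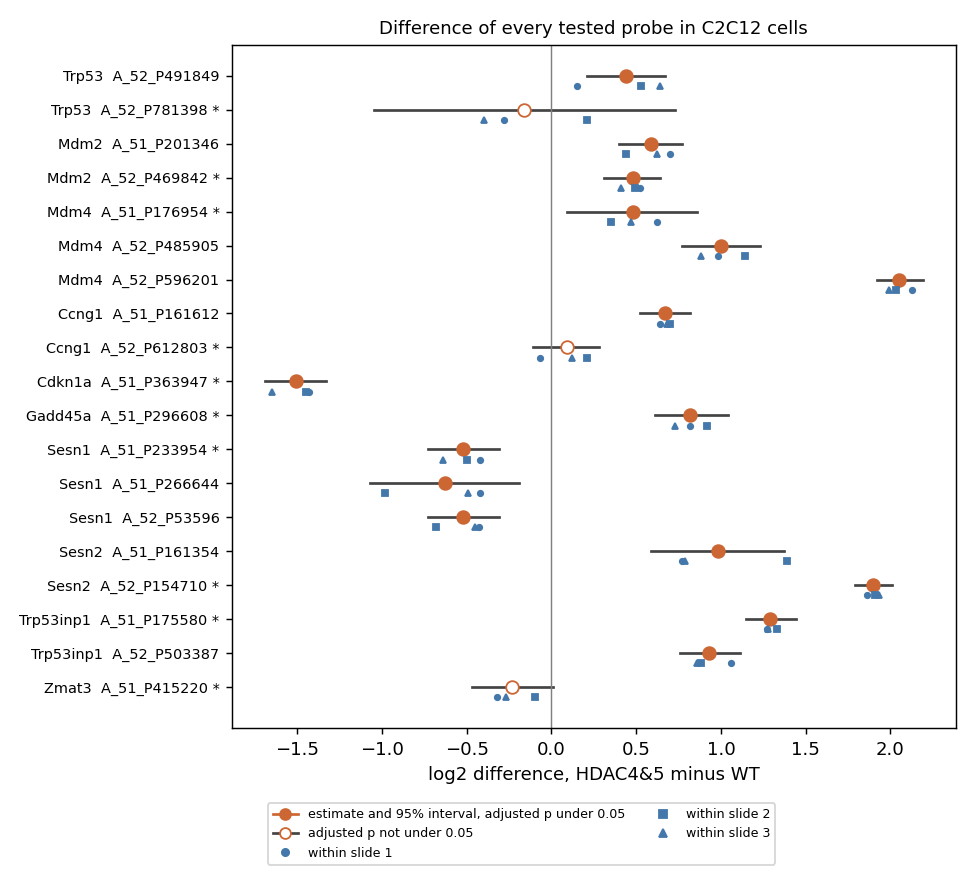
Log2 difference of HDAC4&5 minus WT cells (horizontal axis) for each of the 19 member probes tested (vertical axis; an asterisk marks the probe of a gene brightest over the 19 arrays), n = 6 arrays per group. Large points are estimates with 95% intervals, filled where the limma adjusted p is under 0.05, and small points are the differences within each slide; the probes of Mdm4, Ccng1 and Sesn2 differ in size, and those of Sesn1 lie together.

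Since scaling an array by 1 factor leaves the ratio of 2 of its probes as it was, unequal change was also read within arrays, for 10 pairs chosen after their values were seen. Mdm2 rose by 1.99 and Trp53 (10 spots) by 1.95 relative to Cdkn1a, which repeats their opposite directions and is given with no test. The differences between probes of Mdm4, Ccng1 and Sesn2 given above had an adjusted exact permutation p of 0.0036 over the 10 pairs, and those between the probes of Trp53 did not pass (difference of 0.6, exact permutation p = 0.258).

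The other genes of the pathway were read from 4 lists, as counts with no test of the list. Of 31 further p53 targets, 28 were tested, of which 6 rose and 14 fell, with a median of -0.16 against 0.05 over all genes. Igfbp3, which binds insulin-like growth factors, changed most, and is named here after its value was seen. It was not well above background on any WT array and at least 23.7-fold higher in HDAC4&5 cells (measured means of -7.89 and -1.15, limma adjusted p = 2.86e-14). Of the genes well above background on every array, the 3 with the largest changes were Gdf15, a stress-induced cytokine, which fell by 2.95 (SE 0.07, from 4.96 to 2.00), Btg2, an inhibitor of proliferation, which fell by 2.78 (SE 0.06, from 1.61 to -1.17), and Psrc1, a spindle protein, which rose by 1.59 (SE 0.07, from 1.25 to 2.85). In this list 71.4% of the genes tested were called, near the 69.4% of all genes.

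Of 16 p53 targets that act in apoptosis, 14 were tested, of which 2 rose and 6 fell, with a median of 0.01. Bbc3 (Puma), which opposes the survival proteins of the Bcl-2 family, fell by 0.95 (SE 0.1, from 2.97 to 2.03, limma adjusted p = 1.65e-06), and Bid, of the same family, rose by 0.21 (SE 0.05, from 2.41 to 2.62, limma adjusted p = 0.00417). No other gene of this list was called, well above background on every array and without overlap.

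Of 26 modifiers and relatives of p53, 25 were tested, of which 11 rose and 5 fell, with a median of 0.19. Hipk2 changed most, and is named here after its value was seen. It fell by 1.07 (SE 0.12, from 3.45 to 2.38, limma adjusted p = 6.99e-06) without overlap, but did not meet the rule of being well above background on every array. Among the genes that met it, Usp7, a deubiquitinase of both Mdm2 and p53, rose by 0.78 (SE 0.06, from 4.54 to 5.33), the deacetylase Hdac1 by 0.71 (SE 0.06, from 4.44 to 5.15) and the acetyltransferase Crebbp by 0.71 (SE 0.1, from 0.9 to 1.62). Kat5 and Kat8 acetylate p53 in its DNA-binding domain. Kat5 was at 1.56 ± 0.08 (SD, n = 6) in WT cells and 1.58 ± 0.17 in HDAC4&5 cells, a difference of 0.01 (SE 0.08, limma adjusted p = 0.894). Kat8 rose by 0.27 (SE 0.06, from 3.37 to 3.65, limma adjusted p = 0.000823).

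Of 21 partners of p21 and genes of proliferating cells, 20 were tested, of which 9 rose and 5 fell, with a median of 0.24. Ccnd2, a D-type cyclin whose kinases p21 binds, rose by 3.49 (SE 0.06, 11.2-fold, from 0.57 to 4.06). Ccnd3, the D-type cyclin of differentiating muscle cells, fell by 1.26 (SE 0.12, from 2.98 to 1.73), and E2f2, a transcription factor of the same cycle entry pathway, fell by 2.26 (SE 0.07, from 3.81 to 1.55). In all 4 lists the share called lay between 57.1% and 71.4%.

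In soleus muscle, 9 of the 10 genes could be tested, and limma called 0 of them after adjustment and 1 of 12744 genes in all (0.00785%). At an unadjusted p under 0.05 in limma, 1 member passed, Cdkn1a, against 6.29% of all genes, and it was also the only one with no overlap between the groups, against 9.54% of all genes tested. The methods' t-test called 0 members after adjustment and 1, again Cdkn1a, at an unadjusted p under 0.05, which 7.64% of all genes passed. The median difference was 0.09 over the members and -0.02 over all genes. All 4 further lists had 0 genes called, of 12 apoptosis targets, 23 other targets, 21 modifiers and 13 partners of p21 and proliferation genes tested.

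Cdkn1a was at 0.07, 0.21 and 0.48 in the 3 Con mice and at -0.99, -0.74, -0.74 and -1.03 in the 4 db mice. Every db mouse was below every Con mouse. The difference was -1.13 (SE 0.27, 95% interval -1.76 to -0.5, 2.18-fold), with an exact permutation p of 0.0286 (two-sided), which is the smallest that 3 against 4 arrays allow, and a limma adjusted p of 0.483. It was -1 and -1.36 within the 2 slides and -1.15 with the slide as a block (limma adjusted p = 0.086), and 93.6% of the genes tested had a smaller absolute difference. On the array of db replicate 1, however, 8 of the 10 Cdkn1a spots read -0.35 to 0.26, and 2 spots that the scanner software did not mark as outliers read -4.74 and -4.7, not well above background. The median of the spots on that array was -0.1, under the lowest Con median of 0.08. With the median of spots in place of their mean on all arrays, a choice made after seeing these spots, the difference was -0.88 (SE 0.32, limma adjusted p = 0.693), and without db replicate 1 it was -1.09 (limma adjusted p = 0.667). Among all repeated probes, 15 of 973 spots on the array of db replicate 1 lay over 3 log2 units under their probe's median, 3 of 1033 on that of db replicate 2, and 0 on each of the other 17 arrays.

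**Figure D3:**
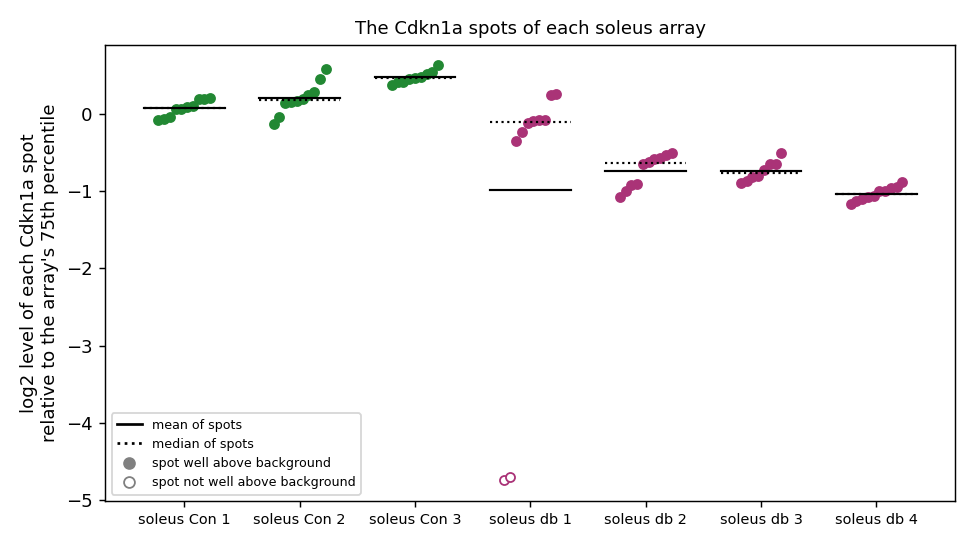
Level of every Cdkn1a spot that was not marked an outlier (vertical axis, log2 relative to the array's 75th percentile) on each of the 7 soleus arrays (horizontal axis). Solid lines are means and dotted lines medians of the spots; on db replicate 1, the mean of -0.99 lies under 8 spots at -0.35 to 0.26 and above 2 spots at -4.74 and -4.7.

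Markers of other cells moved with the groups in muscle. Sums were taken over the markers with a value on all 7 soleus arrays, as times the 75th percentile. That of 4 endothelial markers was 12.9 to 22.4 in Con and 5.92 to 12.6 in db mice, that of 3 of 4 fibroblast markers 224 to 355 and 86.2 to 192, and that of 4 of 5 erythrocyte markers 33.9 to 53.5 and 11.1 to 13, without overlap in any of the 3. Sums of 6 of 7 adipocyte markers (222 to 437 and 168 to 308), 5 macrophage markers (4.31 to 13.5 and 6.76 to 18.6), 4 Schwann cell markers (1.11 to 1.41 and 0.858 to 1.58) and 4 of 9 muscle fibre markers (536 to 1550 and 416 to 1440) overlapped. All 9 muscle fibre markers were well above background in both groups wherever they had a value. The part of these markers in the Cdkn1a difference was not tested.

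**Figure D4:**
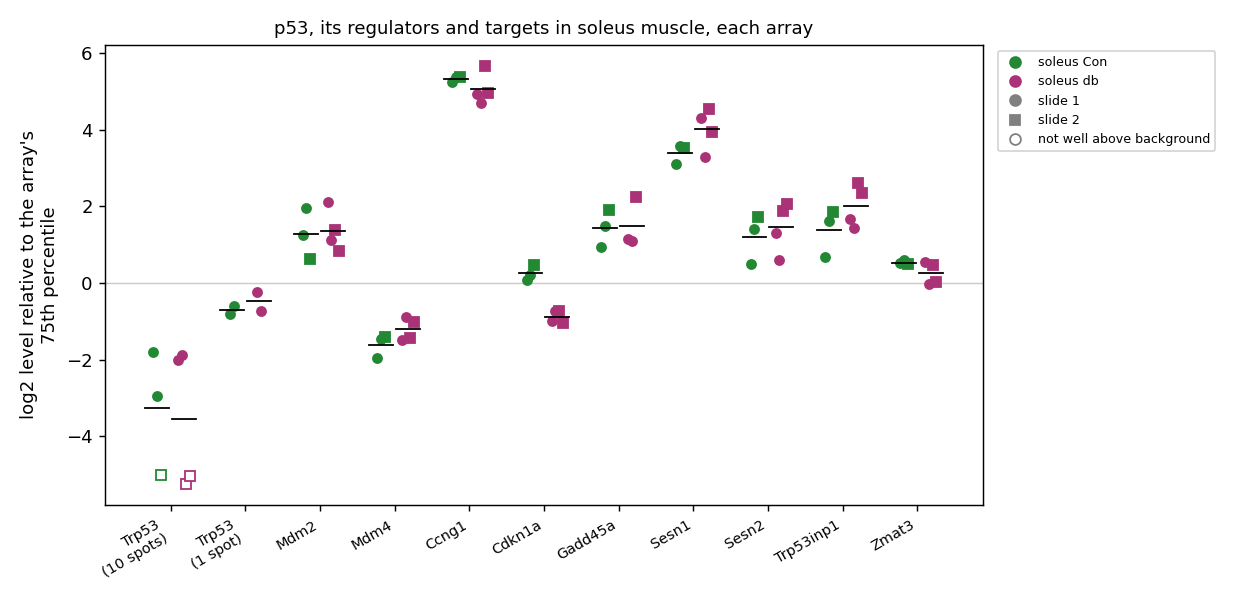
Level of each member in the soleus muscle of 3 Con and 4 db mice, as log2 relative to the array's 75th percentile (vertical axis), by gene (horizontal axis), at the probe brightest over the 19 arrays and at both Trp53 probes. Each point is 1 mouse, its shape gives the slide, open points were not well above background, and bars are group means; only Cdkn1a shows no overlap among the genes tested.

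Trp53 itself could not be tested in muscle. At the probe with 10 spots it was at -1.81, -2.94 and -5.01 in Con mice and -2.01, -1.88, -5.25 and -5.03 in db mice, and the arrays of the second slide, 1 Con and 2 db, were those not well above background. The probe with 1 spot was marked an outlier on the same 3 arrays, and read -0.8 and -0.6 in the other Con and -0.22 and -0.74 in the other db mice.

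Mdm2 read 1.26, 1.95 and 0.63 in Con and 2.13, 1.12, 1.39 and 0.83 in db mice at its brighter probe. The groups overlapped, with a difference of 0.09 (95% interval -0.92 to 1.1). At the probe with 10 spots it read -0.9, -2.39 and 0.18 in Con and 0.48, -0.17, -0.14 and 0.61 in db mice, a difference of 1.23 (95% interval -0.11 to 2.57, limma adjusted p = 0.783) that was 1.8 within 1 slide and 0.06 within the other. Mdm4 differed by 0.4 (95% interval -0.31 to 1.12) and no inhibitor passed the test.

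Sesn1 read 3.1, 3.58 and 3.52 in Con and 4.32, 3.29, 4.55 and 3.94 in db mice at its brightest probe, with 3 of 4 db mice above every Con mouse. The difference was 0.62 (95% interval -0.23 to 1.48, limma adjusted p = 0.852). At the probe that crosses a gap it read -1.67, -3.6 and -1.68 in Con and -0.18, -0.92, -1.06 and -1.06 in db mice without overlap, as at 9.6% of all probes, a difference of 1.51 (SE 0.53, exact permutation p = 0.0286, limma adjusted p = 0.67), where 1 Con array was not well above background. Trp53inp1 differed by 0.63 (95% interval -0.36 to 1.62), Sesn2 by 0.26 (-0.81 to 1.33), Gadd45a by 0.05 (-1.02 to 1.12, from 3 db mice since 1 spot was marked an outlier), Ccng1 by -0.27 (-1.01 to 0.47) and Zmat3 by -0.28 (-0.94 to 0.39). Each of these 5 intervals covers both directions, and the number of arrays limits the precision.

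The soleus Con and C2C12 WT arrays were set side by side to show where the members stand in cells and in muscle, but no slide held both, so tissue and slide cannot be told apart. Of the 10 genes, 4 were higher in soleus (Ccng1, Sesn1, Mdm4 and Trp53inp1), 3 were lower (Cdkn1a, Sesn2 and Gadd45a) and 3 did not pass (Trp53, Mdm2 and Zmat3), where 75.2% of all genes were called, 37.2% higher and 38% lower. The groups did not overlap for 5 of the 10, against 70.5% of all genes. Trp53 is counted by its probe with 1 spot (-0.28, limma adjusted p = 0.667), while its probe with 10 spots, well above background on 2 of 3 Con arrays, differed by -4.05 (limma adjusted p = 5.96e-05). The direction of such calls depends on scaling, since 46.1% of the called probes were higher in soleus by the 75th percentile, 25.6% by the median and 58.9% after normexp correction. Scaling by the median put the median of all probes at -1.13 instead of -0.17, turned Trp53inp1 to -0.37 and left Mdm4 at 0.21 (limma adjusted p = 0.448).

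Across the 4 groups Cdkn1a was highest in WT cells (3.55 ± 0.1, SD, n = 6), then in HDAC4&5 cells (2.04 ± 0.18, n = 6), Con muscle (0.25 ± 0.21, n = 3) and db muscle (-0.87 ± 0.16, n = 4), and no neighbours in that order overlapped. Con muscle differed from WT cells by -3.3 (9.84-fold lower, limma adjusted p = 8.17e-09). Ccng1 had the opposite order of tissues. At its probe brighter in soleus it was at 5.34 ± 0.08 in Con and 5.07 ± 0.42 in db muscle. In WT cells that probe was at 2.8 ± 0.13 and in HDAC4&5 cells at 2.89 ± 0.18. It was 5.8-fold higher in Con muscle than in WT cells, and the groups of each system overlapped. The other Ccng1 probe was 2.12-fold higher in Con muscle than in WT cells. At that other probe the WT and HDAC4&5 arrays did not overlap, while the Con and db arrays did. Sesn1 was highest in db (4.02 ± 0.55) and Con muscle (3.4 ± 0.26), which overlapped, then in WT cells (1.48 ± 0.18) and HDAC4&5 cells (0.96 ± 0.17). Sesn2 was highest in HDAC4&5 cells (4.01 ± 0.07), then in WT cells (2.11 ± 0.07), db muscle (1.47 ± 0.66) and Con muscle (1.21 ± 0.64), where the last 3 overlapped with their neighbours. The comparisons share their WT or Con arrays and are not independent of each other.

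Among the genes whose pattern over the 19 arrays was most like that of Cdkn1a were Unc5b and Tspan14 (root mean square difference of 0.39 on the log2 scale for both, after centring each probe), of 8102 probes compared. For Trp53 at its probe with 10 spots they were Pa2g4 (0.36), Dap (0.39) and a transcript listed as NAP070876-1 (0.4), among 8103. The arrays of a group share slides and RNA source, so this is a description of these 19 arrays.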

How the data were processed

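RNA from 12 C2C12 and 7 soleus samples was hybridised to 19 1-colour arrays. The authors deposited spot intensities from Agilent Feature Extraction 9.5.1.1, background-subtracted within each array, and a matrix of signal values that they had scaled within arrays. No column was left unmapped to a group.

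Spots of control probes and those the scanner software marked as outliers were dropped, log2 processed intensity was averaged over the spots of a probe, and the array's 75th percentile was subtracted. A probe was tested if all arrays of 1 or both groups read it well above background. limma 3.58.1 (R 4.3.3) was fitted to the 2 groups of each comparison, with Benjamini-Hochberg adjustment over all probes tested at a threshold of 0.05. The probe with the highest mean over the 19 arrays stood for its gene, and all probes of the members are given. The code was tested on simulated data. Single values were compared by exact two-sided permutation tests. Intervals are 95%.

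The members and lists were chosen with earlier results of these data known. Named genes are all members, Kat5 and Kat8, from each list the 3 largest changes that passed the test, were well above background on every array and did not overlap between groups, and the 3 genes most like Trp53 and Cdkn1a, of which 1 is not reported here.

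Samples with the same replicate number deviated together (r of 0.228 to 0.584 over 6 pairs in C2C12, 0.371 to 0.661 over 3 pairs in soleus), as did other numbers on 1 slide (0.202 to 0.544 and 0.269 to 0.731). The numbers come from the labels. They were treated as pairs only in the alternative with the replicate number as a block, not in the main tests. Alternatives were quantile and median scaling, normexp (offset 50), no filter and a stricter one, gene level, the deposited matrix, the slide or replicate number as a block, the methods' t-test and leaving out slides or replicates. The median of spots and the probe brightest on the arrays compared were added after seeing the data. In the deposited matrix only the column of Con replicate 3 among the 7 soleus columns matched its own scanner file, so soleus columns were used by group only. Replicate numbers of soleus are those of the scanner files, and pairing or leaving out by number rests on them. Coordinates of probes are those of the scanner files (mm9), and promoters are from RefSeq (GRCm38.p6).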

Additional observations from a re-analysis of the deposited data

Results flagged for a closer look

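In 2 of 50 groups of 4 to 6 arrays, 1 array lay far from the others, where chance gives about 1 in 20. WT replicate 3 read -5.13 at the downstream Mdm4 probe, and the nearest WT array read -4.75. Soleus db replicate 1 read -0.18 at the Sesn1 probe that crosses a gap, and the nearest db array read -0.92.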

How the results depend on the processing

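In C2C12 cells, 94 counts stayed within 1.5 times the reported count, and 148 member values kept their direction and their side of the threshold. Called members numbered 6 to 8, and 9 by the probes brightest on the C2C12 arrays, where Trp53 turned to 0.44. The counts that moved further were 5 apoptosis targets after normexp (reported 8) and 8 p21 partners in the deposited matrix (reported 14). Of the members, Ccng1, with a small difference, became -0.0015 after normexp and -0.093 in the matrix. Mdm4 was no longer called without the filter, in the matrix, or without slide 1 or slide 3 (limma adjusted p = 0.0626, 0.274, 0.163 and 0.101). Cdkn1a ranged from -1.69 to -1.44. With the replicate block or the slide as a block, Zmat3 was also called (8 members), and the block changed no other call of a member. Zmat3 was called as well in the matrix (-0.41, limma adjusted p = 0.0308) and without slide 3 (-0.21, limma adjusted p = 0.024).

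In soleus, 1 probe in all was called, against 3 by quantile normalization, 0 after normexp, with the stricter filter and in the matrix, 31 with the slide as a block, 3 by the methods' t-test after adjustment and 1377 unadjusted, and 0 to 1 with a replicate left out. Unadjusted, that test called 1 member, 3 apoptosis targets, and 1 gene in each of the other lists. Gadd45a became -0.016 after normexp, -0.095 with the replicate block and -0.33 to 0.28 with a replicate left out. Leaving out replicates gave -0.10 to 0.54 for Sesn2 and -0.23 to 0.43 for Mdm2. Cdkn1a ranged from -1.22 to -0.69.

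Between soleus and C2C12, 16633 probes were called, 32579 without a filter and 10523 with the stricter one, which also left 9 apoptosis targets (reported 14) and 10 p21 partners (reported 21). Trp53inp1 became -0.37 by median scaling, and Mdm2 ranged from -0.49 to 0.17 with a replicate left out, positive without Con replicate 3. The stricter filter tests fewer probes; the other causes were not tested. Probes near background limit what could be seen of Trp53 in soleus.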
